A study of Mus musculus with 9 samples.

Results

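Immediate early transcription factors are the first nuclear regulators that a cell transcribes after a stimulus, and 10 genes that encode them were followed in mouse lung exposed to ventilator-induced lung injury (VILI): Fos, Fosb, Fosl2, Jun, Junb, Jund, Egr1, Egr2, Atf3 and Ier2. They were taken by symbol from a table of FPKM values (fragments per kilobase of transcript, scaled to the mapped fragments of each library) that holds 27203 gene identifiers, and all 10 were found. Lung RNA came from 9 male C57BL/6 mice of 6 to 8 weeks. The 3 control mice were intubated and not ventilated. The other mice received 4 hours of ventilation with a tidal volume set to 20 ml/kg and no positive end-expiratory pressure, and their lungs were taken at once (VILI 0 h, 3 mice) or 6 hours later (VILI 6 h, 3 mice). None of these groups was ventilated at a lower tidal volume, so ventilation itself and the large tidal volume cannot be told apart, and both VILI groups were compared with the same 3 control libraries.

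Members of the Fos family (Fos, Fosb, Fosl2) pair with members of the Jun family (Jun, Junb, Jund) through leucine zippers to form AP-1, which binds DNA at TGACTCA. Fos proteins cannot pair with one another, whereas Jun proteins can, so the mixture of AP-1 dimers depends on which members a cell makes. Egr1 and Egr2 encode zinc finger factors that bind GC-rich sites, Atf3 a leucine zipper factor of the ATF/CREB family that can repress as well as activate, and Ier2 a small nuclear protein of the same early response. Transcription of most of these genes starts within minutes of a growth factor, cytokine or mechanical stimulus without new protein synthesis, and their mRNAs are short-lived. In the lung they are known to respond to stretch, oxidants and inflammatory mediators.

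Such stimuli act in part through DNA upstream of the start site, and up to 250 bases of it are given here for 5 genes. Sites further away were not searched, so a motif absent here can lie outside the window. The genes are Jun, which was higher than control at VILI 0 h, Junb and Atf3, which were higher at both times, and Fos and Egr2, whose libraries overlapped control at both times. Bases are from RefSeq (GRCm38.p6), 5′ to 3′ on the strand of the gene, and end just before the RefSeq start site unless stated otherwise. Capitals mark matches to the motifs TGACGT, TGACATCA and TTACGTCA, to the CArG box that serum response factor binds, and to TATAAA.
Fos, chr12:85473640-85473889, plus strand: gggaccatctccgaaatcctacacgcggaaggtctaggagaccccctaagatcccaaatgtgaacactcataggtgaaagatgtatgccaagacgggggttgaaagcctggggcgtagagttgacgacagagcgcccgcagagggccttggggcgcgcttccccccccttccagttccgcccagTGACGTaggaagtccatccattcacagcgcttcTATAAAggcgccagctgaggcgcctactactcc
Jun, chr4:95052223-95052472, minus strand: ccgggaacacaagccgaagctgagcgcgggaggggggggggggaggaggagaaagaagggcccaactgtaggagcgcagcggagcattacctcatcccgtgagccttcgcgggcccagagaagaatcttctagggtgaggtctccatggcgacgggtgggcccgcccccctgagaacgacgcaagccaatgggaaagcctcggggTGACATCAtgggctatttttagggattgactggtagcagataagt
Junb, chr8:84978749-84978998, minus strand: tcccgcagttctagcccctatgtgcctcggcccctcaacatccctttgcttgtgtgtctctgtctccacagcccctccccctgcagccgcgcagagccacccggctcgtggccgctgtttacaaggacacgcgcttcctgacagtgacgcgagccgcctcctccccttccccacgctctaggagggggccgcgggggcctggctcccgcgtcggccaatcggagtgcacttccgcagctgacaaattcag
Egr2, chr10:67537619-67537868, plus strand: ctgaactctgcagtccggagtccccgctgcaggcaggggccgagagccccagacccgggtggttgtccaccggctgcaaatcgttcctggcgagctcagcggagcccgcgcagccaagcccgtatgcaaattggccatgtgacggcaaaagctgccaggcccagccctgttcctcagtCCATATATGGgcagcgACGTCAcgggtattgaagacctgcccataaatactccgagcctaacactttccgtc
Atf3, chr1:191183336-191183583, minus strand, ending 2 bases short of the start site: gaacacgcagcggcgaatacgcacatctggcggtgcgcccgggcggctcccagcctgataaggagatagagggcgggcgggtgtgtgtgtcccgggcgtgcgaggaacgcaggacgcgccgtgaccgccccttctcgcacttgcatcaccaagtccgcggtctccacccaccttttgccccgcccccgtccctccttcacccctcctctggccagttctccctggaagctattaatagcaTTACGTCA

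Fos had TGACGT at bases -66 to -61 from its start site and TATAAA at -33 to -28. Jun carried TGACATCA, a variant AP-1 site, at -45 to -38. In Egr2 a CArG box lay at -72 to -63 and TGACGT, read on the opposite strand, at -56 to -51, while Atf3 had TTACGTCA at -10 to -3, whose last letters also read as TGACGT on the opposite strand. Junb held none of the 8 motifs searched in this window. Among the 250 bases upstream of all 32851 RefSeq start sites, TGACGT was found in 6.47%, TGACATCA in 2.93%, TTACGTCA in 0.447%, the CArG box in 1.47% and TATAAA in 7.59% (TATAAA on the strand of the gene, the others on either strand). The complete sites TGACTCA and TGACGTCA, present in 4.46% and 1.55% of windows, were in no window found for these genes, and the EGR site GCGGGGGCG (2.57%) lay at -50 to -42 in Fosb and at -79 to -71 in Fosl2. These motifs were chosen with the letters of these promoters in view, so the matches describe the windows and carry no test. Egr2 had 5 start sites in the table, and no window was found for Egr1 and Ier2. Fosl2 and Jund had a window that lies away from their GENCODE start. That of Fosl2 opened inside an annotated exon of the gene, so its EGR site was not shown to lie upstream of the gene.

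In the control lungs the levels spanned a wide range. Jun was the highest of the 10 genes at 68.5 ± 3.71 FPKM (mean ± SD, n = 3 in all values of this form), followed by Jund at 45.2 ± 5.05, Ier2 at 26.5 ± 2.34, Junb at 23.8 ± 3.07, Fos at 18.2 ± 5.69, Egr1 at 15.4 ± 3.47 and Fosl2 at 13.0 ± 0.412. Atf3 (2.47 ± 0.334), Fosb (1.69 ± 0.431) and Egr2 (1.45 ± 0.251) were far below them. Since FPKM is per length of transcript, genes can be set beside each other on this scale. In this order the libraries of Jun and Jund overlapped those of no neighbour, and Fosl2 and Atf3 did not overlap each other. From Ier2 down to Fosl2, and from Atf3 down to Egr2, the libraries of each gene overlapped those of the next. At VILI 0 h Junb (63.2 ± 32.7) stood above Jund (55.2 ± 15.6) in mean, and at VILI 6 h Fosl2 (47.5 ± 26.2) stood above Ier2 (41.4 ± 7.64), Fos (26.2 ± 9.86) and Egr1 (17.6 ± 8.93), but the libraries overlapped in each of these pairs.

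**Figure D1:**
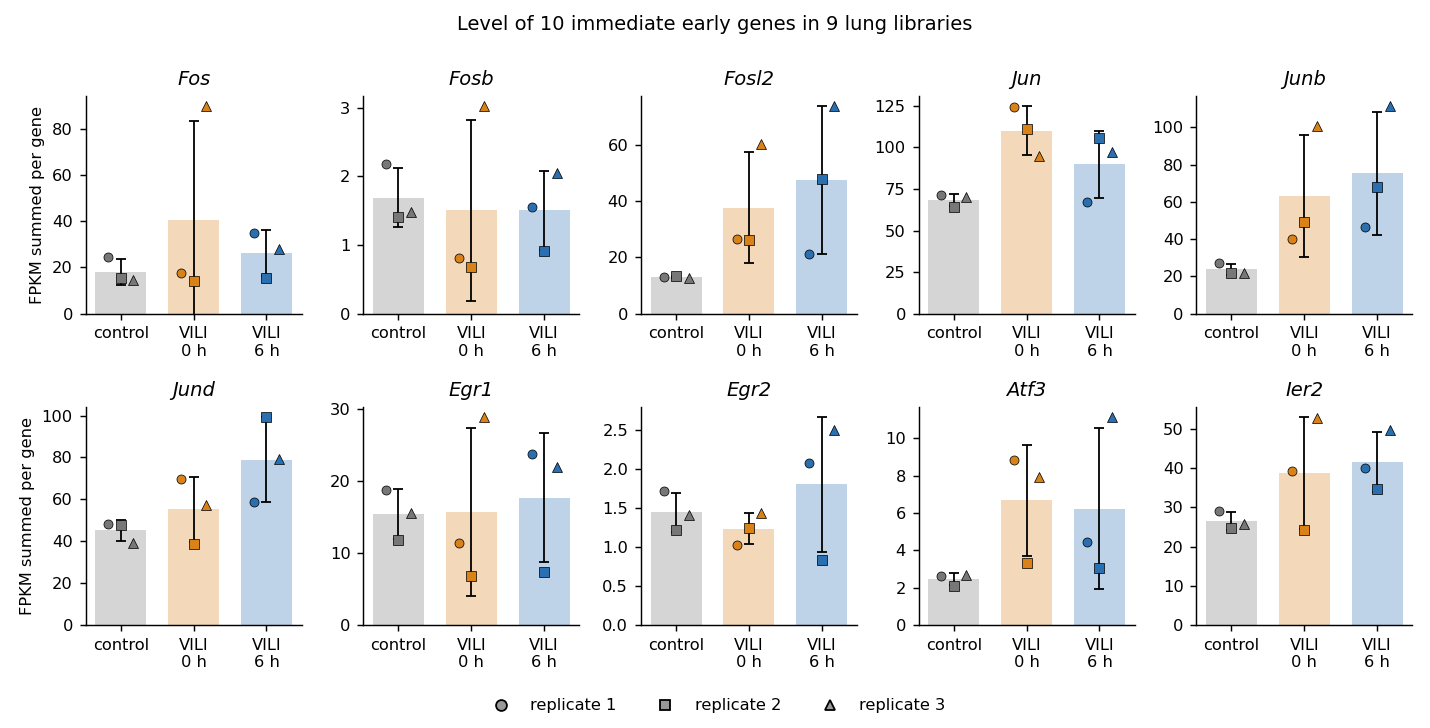
FPKM summed per gene (vertical axis, linear, from 0) for each of the 10 genes in control, VILI 0 h and VILI 6 h lungs; bars are means of 3 libraries, error bars are SD (the bar of Fos at VILI 0 h runs below 0 and ends at the axis), and symbols are single libraries. Fosl2 and Junb lie above all control libraries at both times, whereas Fos, Fosb, Egr1 and Egr2 overlap control.

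A limma fit of log2(FPKM + 0.1) over 19378 genes and the 9 libraries gave the test of each gene. A gene is called here where its unadjusted P is under 0.05, which is also where the study set its limit. Adjusted p values are by Benjamini-Hochberg over all genes tested, and none of the 10 genes had one under 0.05 in any of the 3 comparisons, so each call of these genes is one that adjustment over all genes does not keep. In VILI 0 h vs control 4 of the 10 genes were called, Fosl2, Jun, Junb and Atf3, all higher and all with libraries above every control library, beside 6.81% of all genes tested called higher and 12% with libraries above every control library. In VILI 6 h vs control 5 were called, Fosl2, Junb, Jund, Atf3 and Ier2, again all higher and without overlap, beside 8.17% and 9.64% of all genes tested. Between VILI 0 h and VILI 6 h 0 of the 10 genes were called by the same limma fit, in which 10% of all genes tested were called in either direction, and 0 were free of overlap, where 6.25% of all genes were higher and 6.28% lower at VILI 6 h without overlap. An adjusted p under 0.05 was reached by 0.284%, 0.702% and 0% of all genes tested. The median log2 fold change of the 10 genes was 0.57, 0.56 and 0.24 in these comparisons, and that of all genes tested was -0.07, -0.09 and -0.02. A moderated F test across the 3 groups gave a P under 0.05 for 5 of the 10 genes (Fosl2, Jun, Junb, Jund and Atf3), beside 19.0% of all genes tested, and an adjusted p under 0.05 for 0 of the 10 and 0.495% of all genes.

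**Figure D2:**
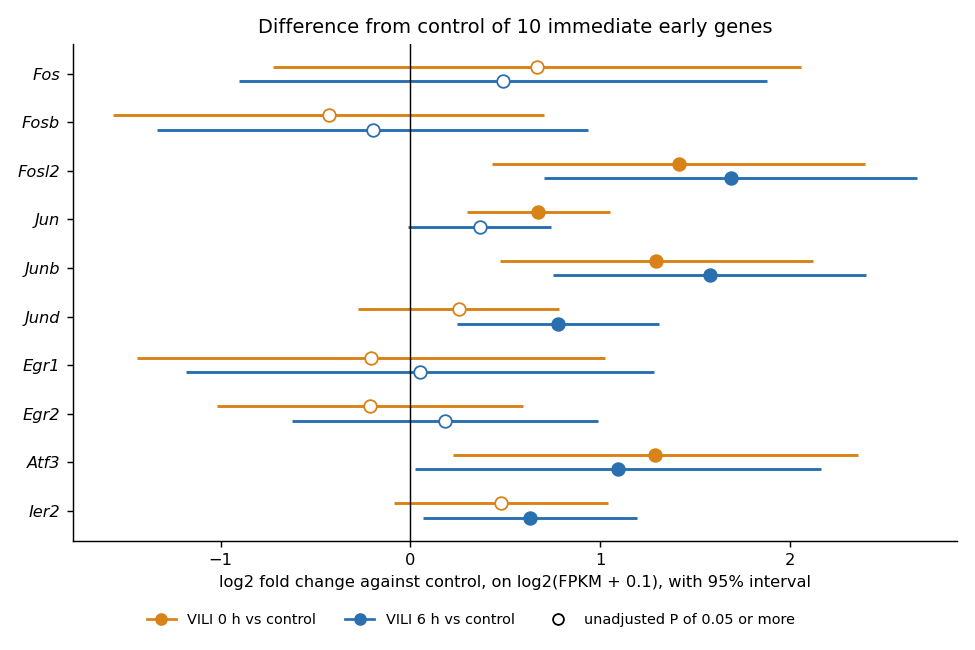
Log2 fold change against control (horizontal axis, log2(FPKM + 0.1) scale) with its 95% interval for the 10 genes at VILI 0 h and VILI 6 h; filled circles have an unadjusted P under 0.05. Fosl2, Junb and Atf3 are filled at both times, Jun only at VILI 0 h, Jund and Ier2 only at VILI 6 h, and the intervals of Fos, Fosb, Egr1 and Egr2 span 0.

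Fosl2, also called Fra-2, is the Fos family member with the slower and more lasting response in many cells. Its control libraries held 13.1, 13.3 and 12.5 FPKM, its VILI 0 h libraries 26.6, 26.1 and 60.4, and its VILI 6 h libraries 21.1, 47.8 and 73.6. Both VILI groups lay above control in every library, and the lowest of the 6 VILI values was that of VILI 6 h replicate 1. The log2 fold change was 1.41 (SE 0.44, adjusted p = 0.168) at VILI 0 h, which is 2.66-fold, and 1.69 (adjusted p = 0.102) at VILI 6 h, which is 3.22-fold. Between the 2 times it differed by 0.27, with a 95% interval from -0.71 to 1.26.

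Fos, the prototype of the family and the best known marker of recent stimulation, was not called at either time. It stood at 24.7, 15.2 and 14.6 FPKM in control, at 17.6, 14.0 and 89.6 in VILI 0 h and at 34.9, 15.5 and 28.1 in VILI 6 h. A single library, VILI 0 h replicate 3, was far above the others, and the remaining VILI values ran from just under the control range to somewhat above it. The log2 fold change was 0.67 at VILI 0 h (95% interval -0.73 to 2.06, adjusted p = 0.636) and 0.49 at VILI 6 h (-0.90 to 1.88, adjusted p = 0.668), intervals that hold both a fall and rises as large as those of Fosl2, and the difference between the genes was not tested. Without VILI 0 h replicate 3 the log2 value at VILI 0 h was -0.17, and without replicate 2 of that group 1.17. The VILI 6 h value was 0.24 without VILI 6 h replicate 1 and 0.82 without VILI 6 h replicate 2.

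Fosb, a close relative of Fos, was low throughout, with 2.19, 1.40 and 1.48 FPKM in control, 0.807, 0.686 and 3.02 in VILI 0 h and 1.56, 0.909 and 2.05 in VILI 6 h. As for Fos, VILI 0 h replicate 3 was the highest library, and the other VILI 0 h libraries were below all controls. Its log2 fold change was -0.43 (adjusted p = 0.716) at VILI 0 h and -0.20 (adjusted p = 0.841) at VILI 6 h. Without VILI 0 h replicate 3 it was -1.06 at VILI 0 h with an unadjusted P under 0.05 and an adjusted p of 0.334, and without VILI 0 h replicate 2 it was -0.06, so that the value and the call for Fosb rest on which library is kept.

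Within the Fos family, in a share chosen after the levels had been seen, Fosl2 made up 32.6%, 44.5% and 43.8% of the summed FPKM of Fos, Fosb, Fosl1 and Fosl2 in the control libraries, 59.0%, 64.0% and 39.4% at VILI 0 h, and 36.5%, 73.9% and 68.2% at VILI 6 h. In 4 of the 6 VILI libraries Fosl2 was the larger part of the family, and in VILI 0 h replicate 3 and VILI 6 h replicate 1 Fos was. The groups overlapped, and a two-sided exact permutation test gave p = 0.3 for each VILI group against control. The summed family was higher than control without overlap at both times (32.9 ± 6.22 FPKM in control, 79.7 ± 63.7 at VILI 0 h, 76.8 ± 27.1 at VILI 6 h), with an exact permutation p of 0.1, the smallest that 3 against 3 libraries can give. The VILI 0 h sums were 45.1, 40.8 and 153 FPKM against a highest control of 40.002, and the difference from control went from 46.8 to 10.1 without replicate 3. At VILI 6 h it went from 43.9 to 28.4 without replicate 3.

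Jun encodes the AP-1 subunit with the strongest transactivation in many settings and is itself a target of AP-1 through the variant site shown above. Its levels were 71.3, 64.3 and 70.0 FPKM in control, 124, 111 and 94.8 in VILI 0 h and 67.2, 105 and 97.0 in VILI 6 h. Every VILI 0 h library exceeded the controls, while VILI 6 h replicate 1 lay within the control range. The log2 fold change at VILI 0 h was 0.67 (SE 0.17, adjusted p = 0.105), or 1.6-fold, and at VILI 6 h 0.37 (95% interval -0.01 to 0.74, adjusted p = 0.256). That Jun was called at VILI 0 h and not at VILI 6 h does not show a difference between the times, since the value at VILI 6 h relative to VILI 0 h was -0.31 with an interval from -0.69 to 0.07. That value was -0.11 without VILI 6 h replicate 1, and without VILI 6 h replicate 2 it was -0.44 and called (adjusted p = 0.478). Against control the VILI 6 h value ran from 0.24 without VILI 6 h replicate 2 to 0.56 without VILI 6 h replicate 1.

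Junb, which shares dimer partners with Jun but activates single AP-1 sites weakly, held 27.3, 21.9 and 22.1 FPKM in control, 39.98, 49.0 and 101 in VILI 0 h and 46.6, 68.2 and 111 in VILI 6 h. All VILI libraries were above all controls, and replicate 3 was the highest library of each VILI group. It had the smallest P of the 10 genes in VILI 6 h vs control, with a log2 fold change of 1.58 (SE 0.37, adjusted p = 0.0811), or 2.98-fold, after 1.30 (adjusted p = 0.138), or 2.46-fold, at VILI 0 h.

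Jund is the Jun family member that most resting cells already make and that is least dependent on stimulation. Control libraries had 48.2, 47.9 and 39.3 FPKM, VILI 0 h libraries 69.6, 38.7 and 57.4, and VILI 6 h libraries 58.6, 99.1 and 79.2. VILI 0 h straddled control, with replicate 2 below all control libraries, and VILI 6 h was above it. The log2 fold change was 0.25 (adjusted p = 0.635) at VILI 0 h and 0.78 (SE 0.24, adjusted p = 0.134), or 1.71-fold, at VILI 6 h. The VILI 0 h value was 0.07 without VILI 0 h replicate 1, and without VILI 0 h replicate 2 it was 0.49 and called (adjusted p = 0.344). The difference between the times was 0.52 (95% interval -0.01 to 1.05, adjusted p = 0.506). It was 0.29 without VILI 0 h replicate 2 and 0.34 without VILI 6 h replicate 2, and it was called without VILI 0 h replicate 1 (0.71, adjusted p = 0.435) or VILI 6 h replicate 1 (0.72, adjusted p = 0.117).

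The balance of the Jun family was also computed, as a quantity chosen after the levels had been seen. The ratio of Junb to Jun was 0.383, 0.340 and 0.316 in control, 0.321, 0.443 and 1.06 at VILI 0 h and 0.694, 0.647 and 1.15 at VILI 6 h. All VILI 6 h libraries were above all controls, and VILI 0 h overlapped them. The mean difference from control was 0.483 at VILI 6 h (two-sided exact permutation p = 0.1, the smallest possible) and 0.262 at VILI 0 h (exact permutation p = 0.3), which became 0.0355 without VILI 0 h replicate 3. Junb took 17.2% ± 1.20 of the summed Jun family FPKM in control and 30.3% ± 7.41 at VILI 6 h, and Jun 49.9% ± 2.89 and 37.1% ± 2.93. Jund took 32.8, 35.7 and 29.9% in control and 29.7, 19.5 and 22.7% at VILI 0 h, lower without overlap though by a narrow gap (exact permutation p = 0.1), and 32.6% ± 4.57 at VILI 6 h, which overlapped control. The summed family held 137 ± 8.25 FPKM in control, 228 ± 27.6 at VILI 0 h and 244 ± 62.6 at VILI 6 h, without overlap with control (exact permutation p = 0.1 for each). In all, 24 such tests of shares, sums and ratios were run for the Fos and Jun families, and after Benjamini-Hochberg adjustment over them the smallest exact permutation p was 0.3.

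The EGR genes were not called at either time. Egr1, induced through serum response factor and MAP kinases, held 18.8, 11.8 and 15.5 FPKM in control, 11.4, 6.78 and 28.8 in VILI 0 h and 23.7, 7.39 and 21.9 in VILI 6 h. Both VILI groups had libraries below and above the control range. Its log2 fold change was -0.21 (95% interval -1.44 to 1.03, adjusted p = 0.889) at VILI 0 h and 0.05 (-1.18 to 1.28, adjusted p = 0.965) at VILI 6 h. Egr2, best known from myelinating Schwann cells and from lymphocytes, held 1.72, 1.22 and 1.41 FPKM in control, 1.03, 1.25 and 1.43 in VILI 0 h and 2.07, 0.838 and 2.497 in VILI 6 h. The VILI 6 h libraries were the most dispersed, on either side of control. Its log2 fold change was -0.21 (-1.02 to 0.59, adjusted p = 0.811) at VILI 0 h and 0.18 (-0.62 to 0.99, adjusted p = 0.788) at VILI 6 h, and without VILI 6 h replicate 2 the value at VILI 6 h was 0.63 with an unadjusted P under 0.05 and an adjusted p of 0.301, against -0.10 without VILI 6 h replicate 3.

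Atf3, a stress-induced factor that limits Toll-like receptor responses in macrophages, was low in control (2.62, 2.09 and 2.71 FPKM) and reached 8.84, 3.30 and 7.95 in VILI 0 h and 4.47, 3.06 and 11.1 in VILI 6 h. Every VILI library exceeded every control, and replicate 2 was the lowest library of both VILI groups. The log2 fold change was 1.29 (SE 0.48, adjusted p = 0.229), or 2.45-fold, at VILI 0 h and 1.09 (adjusted p = 0.237), or 2.14-fold, at VILI 6 h. Without VILI 6 h replicate 3 the log2 value at VILI 6 h was 0.57. The later call was weak: it was kept in 7 of 18 other settings, against 15 of 18 for VILI 0 h. The VILI 0 h call was lost without control replicate 2, VILI 0 h replicate 1 or VILI 0 h replicate 3, and the VILI 6 h call without any 1 of these, control replicate 1 or 3, or VILI 6 h replicate 1 or 3, among other settings.

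Ier2 held 29.1, 24.6 and 25.8 FPKM in control, 39.3, 24.1 and 52.6 in VILI 0 h and 40.03, 34.6 and 49.7 in VILI 6 h. At VILI 0 h its replicate 2 was just below the controls, and at VILI 6 h all libraries were above them. The log2 fold change was 0.48 (95% interval -0.09 to 1.04, adjusted p = 0.386) at VILI 0 h and 0.63 (SE 0.25, adjusted p = 0.206), or 1.55-fold, at VILI 6 h, a call kept in 13 of 18 other settings and lost with eBayes without a trend or when control replicate 2 or 3 or VILI 6 h replicate 1 or 3 was left out. Without VILI 0 h replicate 2 it was called at VILI 0 h too (log2 fold change 0.78, adjusted p = 0.139), and without VILI 0 h replicate 3 the value there was 0.22. The calls of Fosl2 and Junb at both times, of Jun at VILI 0 h and of Jund at VILI 6 h were kept in 18 of 18.

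The libraries of a group were not alike in these genes. VILI 0 h replicate 3 was the highest of its group for 7 of the 10 genes (the exceptions were Jun, Jund and Atf3), and VILI 0 h replicate 2 was the lowest for 7. In VILI 6 h, replicate 3 was the highest for 6 genes and replicate 2 the lowest for 6, while replicate 1 was the lowest for Fosl2, Jun, Junb and Jund and the highest for Fos and Egr1. Over all genes tested, VILI 6 h replicate 1 was also closer to control than its group: the mean absolute log2 difference from the control mean was 0.363 there and 0.510 and 0.657 in replicates 2 and 3. For the 10 genes it was 0.573, 0.857 and 1.13. Without that library, 3 of the 10 genes had an adjusted p under 0.05 at VILI 0 h (Jun 0.00943, Fosl2 0.0294, Junb 0.0457) and 4 at VILI 6 h (Fosl2 0.00409, Junb 0.00903, Jun 0.0129, Jund 0.0176), while the share of all genes tested that passed was larger as well, with 1343 and 4512 genes in place of 55 and 136. In that fit Jun was called at VILI 6 h, Atf3 and Ier2 were not (adjusted p = 0.129 and 0.130), and Fosl2 (0.77, adjusted p = 0.222) and Jund (0.72, adjusted p = 0.117) were called higher at VILI 6 h than at VILI 0 h. All of these are from limma.

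Standardised over the 9 libraries, so that each gene has a mean of 0 and an SD of 1 on the log2 scale, the genes fell into profiles that resembled each other to different degrees. Fosl2 and Junb were the closest pair, with a root mean square difference of 0.197 SD units over the 9 libraries. Fosb and Egr1 were each other's nearest gene at 0.416, Atf3 and Ier2 at 0.476, and Egr1 was also the nearest to Fos (0.579) and Egr2 (0.673). Jun (0.793 from Fosl2) and Jund (0.741 from Fosl2) had no close counterpart among the 10. Ier2 lay nearest to the mean profile of all 10 genes (0.226). Among 14098 other genes with a mean of at least 1 FPKM, those nearest to that mean profile were Slc2a1 (0.326), the glucose transporter GLUT1, Zfp106 (0.326), Ltf (0.350), which encodes lactoferrin of neutrophil granules, Tuba4a (0.357) and Ifrd1 (0.382). Slc2a1 held 5.597, 5.14 and 5.47 FPKM in control, 7.47, 7.10 and 12.3 in VILI 0 h and 7.89, 8.23 and 14.7 in VILI 6 h. As with Fosl2 and Junb, replicate 3 was its highest library in each VILI group. These distances describe 9 libraries and carry no test.

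**Figure D3:**
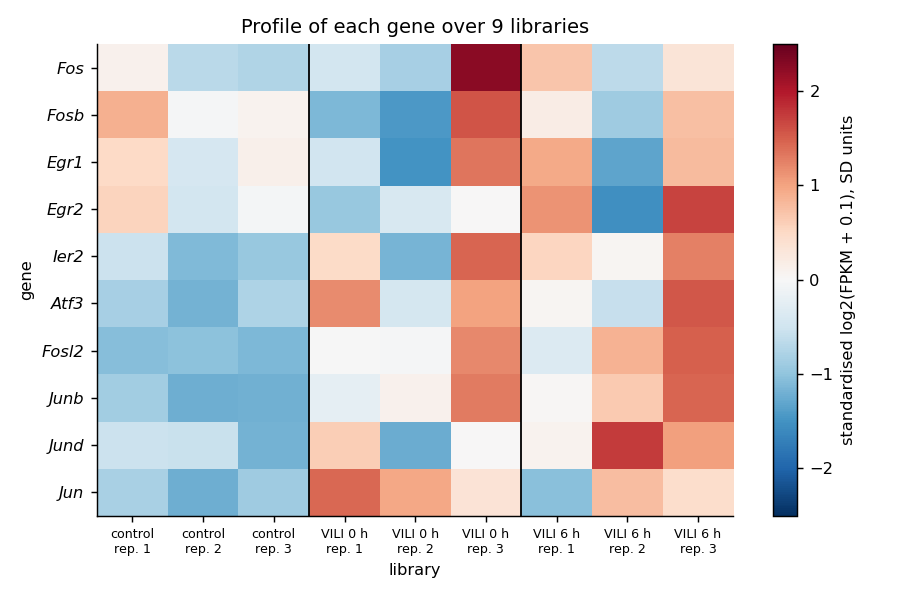
Standardised log2(FPKM + 0.1) of the 10 genes (rows) in the 9 libraries (columns, grouped as control, VILI 0 h and VILI 6 h); colour gives SD units from the mean of the gene. Fos, Fosb, Egr1 and Egr2 show no block of colour by group and vary between libraries, while Fosl2 and Junb are low in all control libraries and highest in replicate 3 of both VILI groups.

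Lung tissue is a mixture, and in bulk RNA a change in the number of cells of a type and a change of RNA per cell cannot be told apart. Markers of alveolar type 2 and type 1, endothelial, fibroblast and airway cells were present in all libraries. Of all genes tested 6.81% were called higher and 9.35% lower at VILI 0 h and 8.17% and 12.2% at VILI 6 h, beside which the counts of markers are given. The 9 neutrophil markers summed to 51.7 to 63.1 FPKM in control, 565 to 1017 at VILI 0 h and 481 to 2096 at VILI 6 h, none of them at or near 0 in all libraries, and 7 and 8 of 9 were called higher at the 2 times. An adjusted p under 0.05 by limma was reached by 5 and 6 of the 9, beside 0.284% and 0.702% of all genes tested. Their median log2 fold changes were 3.57 and 4.06. The highest sum, 2096 FPKM, was in VILI 6 h replicate 3, the library with the highest Fosl2, Junb and Atf3, and the lowest of the VILI sums, 481, was in VILI 6 h replicate 1, the library with the lowest Fosl2 of the 6. At VILI 0 h the order differed: replicate 2 had the highest sum, 1017, and the lowest Fosl2. Of the 8 monocyte and macrophage markers 2 were called higher at VILI 0 h and 3 at VILI 6 h, with medians of 0.43 and 0.51. At VILI 6 h 3 of 4 B cell markers, 2 of 5 fibroblast markers (1 with an adjusted p under 0.05) and 2 of 6 endothelial markers were called lower. At VILI 0 h 1 marker of each of these lists was called lower, and 1 fibroblast marker higher. Of 5 alveolar type 1 markers 1 was called higher at each time. Of 6 alveolar type 2 markers 1 was higher at VILI 0 h and 1 lower at VILI 6 h. Of 4 club and ciliated markers 1 was lower at VILI 6 h. The 5 cardiac muscle markers summed to 270 FPKM in VILI 0 h replicate 3, the library with the highest Fos, Fosb and Egr1, and to 122 to 152 in the other 8 libraries, and the 4 smooth muscle markers to 278 there and 156 to 279 in the others. The erythroid sum was 2090 to 2655 FPKM in control, 3179 to 3559 at VILI 0 h, and 312, 2216 and 2457 in the VILI 6 h libraries. Of the 4 erythroid markers 3 were called lower at VILI 6 h than at VILI 0 h, beside 4.94% of all genes tested. The part of cell composition in the levels of the 10 genes was not tested.

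Dimer partners of AP-1 outside the 10 genes were followed in 18 genes. At VILI 0 h 4 were called higher and 1 lower, at VILI 6 h 6 higher and 2 lower, and between VILI 0 h and VILI 6 h 1 and 1, where 6.81%, 8.17% and 5.06% of all genes tested were called higher and 9.35%, 12.2% and 4.94% lower. Mafk and Maff encode small Maf factors, which lack a transactivation domain and can pair with Fos. Mafk was higher by 0.87 (adjusted p = 0.0768) and 0.84 (adjusted p = 0.0723) on the log2 scale at VILI 0 h and VILI 6 h, and Maff by 1.55 (adjusted p = 0.150) and 1.67 (adjusted p = 0.112). Jdp2, which encodes a repressor that pairs with Jun, was higher at VILI 0 h (0.77, adjusted p = 0.0785) and lower at VILI 6 h than at VILI 0 h (-0.41, adjusted p = 0.460). The Fos relative Fosl1 held at most 0.0341 FPKM in control and at most 0.139 at VILI 0 h, and 0.216, 0.463 and 4.15 in the 3 VILI 6 h libraries. Its VILI 6 h vs control value of 2.94 (adjusted p = 0.116) and its value of 2.41 (adjusted p = 0.393) against VILI 0 h depend on the pseudocount, since both reference groups lie near or below 0.1 FPKM. The list had a median log2 fold change of 0.05 and 0.09 against control, and Creb1 was at 0.56 at VILI 6 h relative to VILI 0 h (adjusted p = 0.608).

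Of 32 other immediate early genes, 31 were expressed enough to be tested. Of these, 13 were called higher and 2 lower at VILI 0 h, with a median log2 fold change of 0.66, and at VILI 6 h 12 higher and 1 lower, with a median of 0.58. Over all genes tested 6.81% and 8.17% were called higher and 9.35% and 12.2% lower. Gadd45g, of a family of stress sensors that act on MAP kinase cascades, was higher by 1.84 (adjusted p = 0.101) at VILI 0 h and by 2.13 (adjusted p = 0.0675) at VILI 6 h, and Gadd45a by 0.75 (adjusted p = 0.107) and 0.80 (adjusted p = 0.0849). Ier5l went the other way at VILI 0 h (-0.94, adjusted p = 0.109). Between VILI 0 h and VILI 6 h 2 were called higher and 3 lower, beside 5.06% and 4.94% of all genes, among them Plk2, a polo-like kinase (-1.05, adjusted p = 0.348), Ier5l (0.75, adjusted p = 0.361) and Ier5 (0.50, adjusted p = 0.425).

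Upstream of these genes, serum response factor and its partners (7 genes) and the MAP kinase cascade that acts on AP-1 (19 genes) were followed at the mRNA level. Over all genes tested 6.81% were called higher and 9.35% lower at VILI 0 h, 8.17% and 12.2% at VILI 6 h, and 5.06% and 4.94% between VILI 0 h and VILI 6 h. Of the 7, 1 was called higher at VILI 0 h, the cofactor gene Mrtfb (0.50, adjusted p = 0.112), and 1 lower, the ternary complex factor gene Elk3 (-0.61, adjusted p = 0.233), while Elk1 was at 0.07 (adjusted p = 0.854). None of the 7 was called at VILI 6 h by limma, with Elk3 at -0.50 (adjusted p = 0.251), Mrtfa at 0.16 (adjusted p = 0.425) and Myocd at 0.24 (adjusted p = 0.518). From VILI 0 h to VILI 6 h Mrtfb was lower (-0.40, adjusted p = 0.367), with Myocd at 0.28 (adjusted p = 0.690) and Elk1 at -0.18 (adjusted p = 0.715). Of the 19 kinase genes none was called at VILI 0 h by limma, where the smallest P values were those of Mapk8, which encodes JNK1 (-0.40, adjusted p = 0.341), Map3k8 (0.69, adjusted p = 0.359) and Mapkapk2 (0.29, adjusted p = 0.392). Called higher at VILI 6 h were 2, Map3k8, the kinase Tpl2 of the Toll-like receptor pathway (1.13, adjusted p = 0.134), and Mapkapk2, the substrate of p38 (0.50, adjusted p = 0.136), and 4 were lower, among them Map2k6, a kinase of p38 (-1.24, adjusted p = 0.164). The median log2 fold change of the 19 was 0.05 at VILI 6 h. The later against the earlier VILI group had 3 higher, Rps6ka3 (0.31, adjusted p = 0.431), Rps6ka4 (0.36, adjusted p = 0.438) and Map2k3 (0.45, adjusted p = 0.487). These kinases act through phosphorylation, which RNA does not show.

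Feedback inhibitors of the response, 20 genes, had 3 called higher and 1 lower at VILI 0 h and 3 higher and 0 lower at VILI 6 h, with medians of 0.15 and 0.18, beside 6.81% and 8.17% of all genes called higher and 9.35% and 12.2% lower. Zfp36, which encodes tristetraprolin, a protein that binds AU-rich elements and speeds the decay of early mRNAs, was higher by 1.33 (adjusted p = 0.123) and 1.21 (adjusted p = 0.128), whereas its relative Zfp36l1 was lower at VILI 0 h (-0.49, adjusted p = 0.172). Spry4, an inhibitor of receptor tyrosine kinase signalling, was higher by 0.83 (adjusted p = 0.194) and 0.95 (adjusted p = 0.123), and Spry1 at VILI 6 h by 0.31 (adjusted p = 0.240). The 3 that were higher at VILI 6 h than at VILI 0 h, beside 5.06% of all genes, were Spred1 (0.38, adjusted p = 0.385), Nab1, a corepressor of the EGR proteins (0.29, adjusted p = 0.443), and Fbxw7, a ubiquitin ligase component that marks Jun for degradation (0.38, adjusted p = 0.482).

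Known target genes of AP-1 and EGR1 numbered 26, of which 25 were tested. The VILI 0 h comparison called 5 higher and 5 lower, with a median of -0.17, and at VILI 6 h 11 higher and 1 lower, with a median of 0.56, where 6.81% and 8.17% of all genes were called higher and 9.35% and 12.2% lower. Mmp9, a matrix metalloproteinase that neutrophils also store in granules, had an adjusted p under 0.05 at both times. It held 2.73, 2.06 and 2.21 FPKM in control, 9.98, 18.5 and 15.3 in VILI 0 h and 13.8, 16.4 and 24.9 in VILI 6 h, a log2 fold change of 2.56 (adjusted p = 0.0204) and 2.89 (adjusted p = 0.00959). Timp1, an inhibitor of metalloproteinases, passed at VILI 6 h only, with 3.08, 2.97 and 1.62 FPKM in control, 2.62, 4.37 and 3.21 in VILI 0 h and 8.90, 12.5 and 30.5 in VILI 6 h (2.56, adjusted p = 0.0353). Over the 18 other settings the adjusted p of Mmp9 was under 0.05 in 12 at VILI 0 h (highest 0.159) and in 16 at VILI 6 h (highest 0.102, not passing without control replicate 2 or 3), and that of Timp1 at VILI 6 h in 6 (highest 0.164). At VILI 0 h Mmp9 did not pass without control replicate 1, 2 or 3 or VILI 0 h replicate 2 or 3, or with no filter on low values. Timp1 did not pass without any 1 control library, VILI 0 h replicate 1 or 3, or VILI 6 h replicate 2 or 3, nor with no filter, the replicate block, eBayes without a trend, the row with the highest mean or only the 6 libraries compared. Between the VILI groups 8 of the 25 were called higher and 0 lower, with a median of 0.38, beside 5.06% and 4.94% of all genes. The smallest P values were those of the chemokine gene Ccl2 (3.48, adjusted p = 0.144), Timp1 (2.14, adjusted p = 0.173) and the growth factor gene Hbegf (0.61, adjusted p = 0.248), all higher at VILI 6 h. The neutrophil marker sums given above were higher than control at both times too, with 0 of 9 markers called by limma between the times (median log2 fold change 0.23), and their part in the values of Mmp9 was not tested.

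The 10 genes share a low number of exons, from GENCODE M21 (GRCm38). They have 1 to 4 in their principal transcript, with a median of 2, against a median of 9 over the 15263 protein-coding genes tested that have such a transcript. Jun, Junb, Jund and Ier2 have no intron, as do 3.42% of those genes. The median length of the region spanned by that transcript was 3852 bases against 21481. It was 1522 in Ier2, the shortest of the 10, 13045 in Atf3, whose gene reaches further in other transcripts, and 22042 in Fosl2, which was not short by this measure. Fosl2, called at both times, and Fos (3384 bases), called at neither, both have 4 exons.

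In the 3′ UTR, the pentamer ATTTA of AU-rich elements, to which tristetraprolin and related proteins bind, was present in 9 of the 10 genes (all but Ier2), and in 64.1% of 14966 genes with a 3′ UTR. Per kilobase of 3′ UTR the median was 2.19 copies against 1.15. Fos had the highest density of the 10 (4.91 per kilobase, higher than in 93.0% of genes), followed by Junb (4.12) and Jun (3.24), and Fosl2 had the highest number, 8, in a 3′ UTR of 4653 bases. The nonamer TTATTTATT was in Fos and Fosl2 and in 6.94% of genes. Density did not separate called from uncalled genes: Fos and Egr2 (2.5) were as dense as or denser than Fosl2 (1.72) and Jund (1.88).

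**Figure D4:**
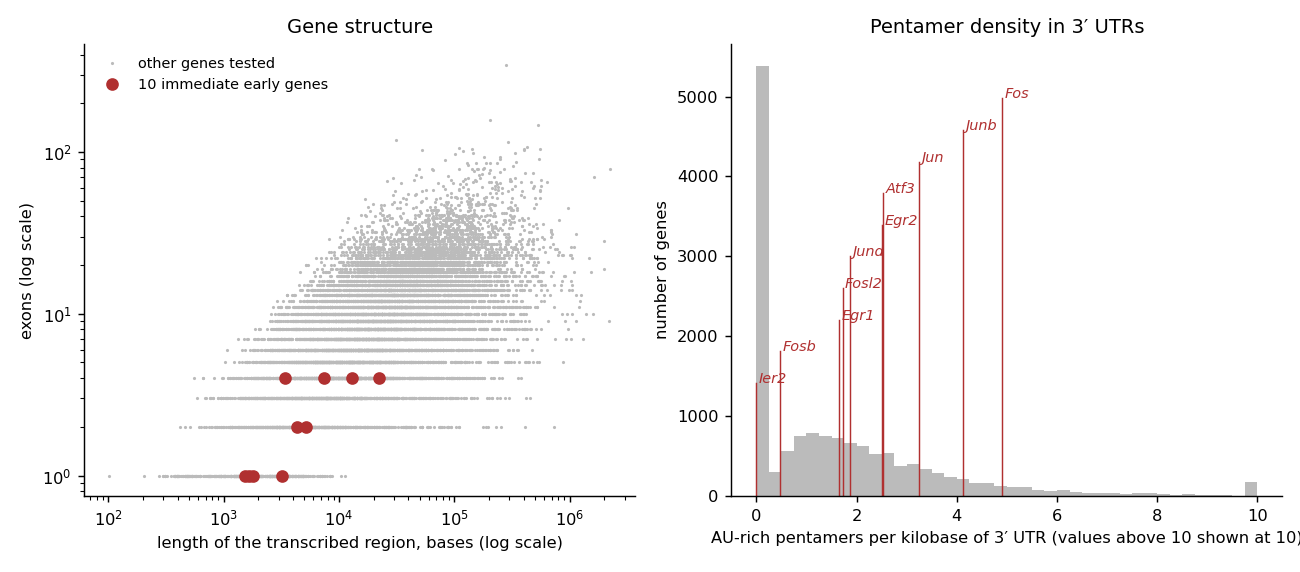
Left, number of exons against length of the transcribed region (both axes logarithmic) for the 10 immediate early genes and the other protein-coding genes tested; right, histogram of AU-rich pentamers per kilobase of 3′ UTR over genes, with a line at the value of each of the 10 genes (line height has no meaning). The 10 genes have at most 4 exons, and Ier2 alone has no pentamer.

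The genes lie on 8 chromosomes, 3 of them on chromosome 8, where Junb (84974484 to 84978718, minus strand) and Ier2 (84661331 to 84662852, minus strand) are 311631 bases apart. Jund is on the same chromosome at 70698949 to 70700616 (plus strand). The others are Fos on chromosome 12 (85473890 to 85477273, plus), Fosb on 7 (19302696 to 19310051, minus), Fosl2 on 5 (32135801 to 32157842, plus), Jun on 4 (95049034 to 95052222, minus), Egr1 on 18 (34859823 to 34864984, plus), Egr2 on 10 (67535475 to 67542188, plus) and Atf3 on 1 (191170296 to 191218039, minus). Exons of 3 of them overlap a gene on the opposite strand: Junos for Jun, Prdx2 for Junb and Gm11175 for Jund. The study's methods name a strand-specific library kit and the sample records another kit, and whether reads were assigned by strand is not given in the sources used here, so reads of these pairs may be shared. None of the 3 partners was called higher, and Junos and Prdx2 were called lower at VILI 6 h, beside 12.2% of all genes tested. At VILI 0 h the log2 fold change was -0.26 for Junos (adjusted p = 0.436), -0.12 for Prdx2 (adjusted p = 0.739) and -0.32 for Gm11175 (adjusted p = 0.700), and at VILI 6 h -0.35 (adjusted p = 0.236), -0.35 (adjusted p = 0.228) and -0.33 (adjusted p = 0.613). Junos was at 3.73 to 5.59 FPKM and Gm11175 at 0.883 to 2.17 in the 9 libraries, well under their partners, and Prdx2 at 26.1 to 42.4.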

How the data were processed

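Total lung RNA of 9 mice was sequenced, 3 per group, and groups were taken from the sample records. Per the labels, reads were aligned to GRCm38 with TopHat2 2.0.9 and Bowtie2 2.0.6, and the authors estimated FPKM per transcript with Cuffdiff 2.1.1. The methods add assembly with Scripture and Cufflinks. The methods state that rRNA was depleted and name a directional NEBNext kit, whereas the sample records name a TruSeq RNA kit, so which preparation these libraries had is not settled here. The deposited table holds 60108 rows, and its columns sum to 366400 to 388500 FPKM. The study lists mapped reads per library, which were not used here, and the table gives no reads per gene. Precision therefore rests on the spread between mice, 3 per group, which the limma fit pools over the 3 groups and moderates across genes. In that fit the VILI 6 h libraries thus also enter the P values of VILI 0 h vs control.

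FPKM was summed over the rows of each gene identifier (2 to 7 rows for Fosb, Egr1, Egr2 and Atf3, 1 for the others), and 23503 of 23713 Ensembl identifiers were named from GENCODE M21. Genes with a mean of at least 0.1 FPKM over the 9 libraries (19378) were tested on log2(FPKM + 0.1) by limma (version 3.58.1, under R 4.3.3), using eBayes with an intensity trend and group as the only factor, with Benjamini-Hochberg adjustment over all of them. Fold changes of genes near 0.1 FPKM are understated. Ratios within a family were tested by two-sided exact permutation. Promoter windows were from RefSeq, and exons and UTRs from GENCODE, with Python 3.11.15, pandas 2.3.3 and scipy 1.17.1.

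The 10 genes, the pathway and marker lists and the motifs were chosen with earlier results of these data known. Named by rule were all 10 genes, from each pathway list per comparison the genes with an adjusted p under 0.05 or otherwise the 3 with the smallest P, and the 5 genes nearest to the mean profile. The exception was the list of other immediate early genes in VILI 6 h vs control, where fewer were named. On simulated data of 19378 genes for VILI 0 h vs control, 46.0% of genes changed by a log2 of 1 and 78.0% of those changed by 2 (50 genes each) reached an adjusted p under 0.05, and 5.18% of unchanged genes had a P under 0.05. The simulated noise was drawn independently for each gene, with no deviation shared by a whole library. These shares therefore check the code of the fit and do not give the power or error rate of the real data.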

Additional observations from a re-analysis of the deposited data

How the results depend on the processing

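Recomputed were pseudocounts of 0.01 and 1, a mean of at least 1 FPKM, no filter, median-centred libraries, a replicate block, eBayes without a trend, the row with the highest mean FPKM, only the 6 libraries compared, and each library left out. Leaving out 1 library gave 3 (without control replicate 2 or VILI 0 h replicate 1) to 6 (without VILI 0 h replicate 2) of the 10 genes called at VILI 0 h, 3 (without control replicate 2 or 3 or VILI 6 h replicate 3) to 6 (without VILI 6 h replicate 2) at VILI 6 h and 0 to 2 (without VILI 6 h replicate 1 or 2) between VILI 0 h and VILI 6 h. Over all genes it gave 1979 to 4493, 2543 to 7526 and 1407 to 4350 calls, and 2306 to 7134 by the F test, the highest each time without VILI 6 h replicate 1 and the lowest without control replicate 2, except 1407 without VILI 0 h replicate 3. With only the 6 libraries compared, 5094 genes were called at VILI 0 h (1597 with an adjusted p under 0.05, among them Jun and Fosl2) and 1210 between VILI 0 h and VILI 6 h. Without a trend 3 of the 10 genes were called at VILI 6 h. Signs turned only in values that were not called, when 1 library was left out. At VILI 0 h the range was -0.77 to 0.26 for Egr1 and -0.17 to 1.17 for Fos. At VILI 6 h it was -0.24 to 0.59 for Egr1, -0.44 to 0.10 for Fosb and -0.10 to 0.63 for Egr2. Between VILI 0 h and VILI 6 h it was -0.13 to 0.86 for Fosb, -0.72 to 0.20 for Atf3, -0.21 to 0.82 for Egr1, -0.15 to 0.41 for Ier2, -0.68 to 0.66 for Fos, -0.13 to 0.77 for Fosl2 and -0.047 to 0.67 for Junb. The difference in the share of Fosl2 within its family between the 2 times, an alternative chosen after seeing the data, ran from -1.93 to 16.9 percentage points. Also added then, the difference in the summed Fos family between the 2 times ran from -22.3 to 33.9 FPKM, and that in the share of Jund between VILI 6 h and control from -2.07 to 2.34 percentage points. The cause of these differences was not tested. Median centring shifted log2 fold changes by 0.115 and 0.127 against control and the share of higher among all calls from 42.1% to 61.2% and from 40.1% to 58.1%, with the same genes called among the 10. Over all genes tested, same-numbered libraries deviated with a correlation of -0.221 to 0.0175, which showed no pairing by number at that level. Among the 10 genes, replicate 2 was the lowest library for 7 in control, 7 at VILI 0 h and 6 at VILI 6 h. The highest library for most of them was replicate 1 in control (8 genes) and replicate 3 at VILI 0 h (7) and VILI 6 h (6). Pairing within the 10 genes was not tested. The replicate block added Ier2 at VILI 0 h, giving 5 genes, and left 5 and 0 in the other comparisons, with 10, 43 and 0 adjusted calls over all genes.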
